A study of Mus musculus with 2 samples.

Results

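Cells with macrophage transcripts were picked out of 2 single-cell RNA libraries of mouse hearts at E12.5 (midgestation), and made up 165 of 8740 cells. The mutant library (Tbx18-Cre; Prmt1 fl/fl; YFP/+) gave 81 of them from 4640 cells, and the control library (Tbx18-Cre; YFP/+) gave 84 from 4100 cells. The Cre and a YFP reporter were in both genotypes, and floxed Prmt1 on both chromosomes was in the mutant alone. The members were chosen by measured values: a cell was taken when it had at least 4 unique molecular identifiers (UMIs, 1 per captured transcript) of C1qa, C1qb, C1qc, Tyrobp and Fcer1g together, with at least 2 of the 5 genes seen. The levels of these 5 genes, and of every gene that travels with them, therefore describe the choice of cells and were not tested. With a single library for each genotype, differences between genotypes have neither a replicate check nor a test. Each interval covers counting error only. The sources used here do not give the number of embryos behind a library or any sorting of the cells.

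Prmt1 encodes the main enzyme that places asymmetric methyl groups on arginine, and Tbx18-Cre is driven by a gene active in the epicardium, which covers the heart. Macrophages of the embryonic heart are phagocytes of the blood lineage that settle in the organ during midgestation, many of them from the yolk sac. They clear dying cells and take part in the growth of coronary and lymphatic vessels. They are not known as descendants of Tbx18-expressing cells, and no Cre or YFP row was in the gene tables, so recombination in them was not examined.

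C1qa, C1qb and C1qc encode the chains of C1q, the recognition subunit of the classical complement pathway, which tissue macrophages secrete. Their genes lay side by side on the minus strand of chromosome 4 in GRCm38, C1qa at 136895917 to 136898803, C1qc at 136889804 to 136893065 and C1qb at 136880129 to 136886187. Tyrobp (chromosome 7, 30413760 to 30417585, plus strand) and Fcer1g (chromosome 1, 171229572 to 171234365, minus strand) encode membrane adapters that pass on signals of Trem2 and Fc receptors through immunoreceptor motifs. All 5 are protein coding in GENCODE M21. Mast cells, basophils, platelets and natural killer cells also use Fcer1g or Tyrobp, so single genes of the rule are shared with other blood cells.

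The promoters of 2 leading macrophage genes and of 2 chemokine genes among those with the lowest mutant over control ratios are shown first. Each line gives the 250 bases before the RefSeq start in GRCm38.p6, 5′ to 3′ along the gene. Capitals mark the sequence GAGGAA or its reverse complement, a core that the myeloid factor PU.1 can bind, in C1qb and Trem2. In Cxcl1 and Cxcl2 they mark a match to the NF-kappa-B consensus, found on both strands. The C1qb window is chr4:136886201-136886450 on the minus strand and that of Trem2 chr17:48346151-48346400 on the plus strand. The Cxcl1 window is chr5:90890995-90891244 and that of Cxcl2 chr5:90903649-90903898, both on the plus strand.
C1qb: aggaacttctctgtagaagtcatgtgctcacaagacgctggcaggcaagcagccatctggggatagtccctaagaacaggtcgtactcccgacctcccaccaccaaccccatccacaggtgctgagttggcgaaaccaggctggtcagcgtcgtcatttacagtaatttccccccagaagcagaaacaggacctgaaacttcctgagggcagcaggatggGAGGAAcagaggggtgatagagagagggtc
Trem2: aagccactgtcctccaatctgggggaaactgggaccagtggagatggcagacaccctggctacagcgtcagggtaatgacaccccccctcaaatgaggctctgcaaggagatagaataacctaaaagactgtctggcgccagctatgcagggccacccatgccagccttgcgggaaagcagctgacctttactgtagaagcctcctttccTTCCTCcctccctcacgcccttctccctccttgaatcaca
Cxcl1: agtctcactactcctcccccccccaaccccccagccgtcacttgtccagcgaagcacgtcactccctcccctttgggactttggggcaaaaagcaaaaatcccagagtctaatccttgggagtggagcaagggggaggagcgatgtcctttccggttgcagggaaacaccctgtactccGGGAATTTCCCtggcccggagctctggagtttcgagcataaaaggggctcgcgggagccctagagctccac
Cxcl2: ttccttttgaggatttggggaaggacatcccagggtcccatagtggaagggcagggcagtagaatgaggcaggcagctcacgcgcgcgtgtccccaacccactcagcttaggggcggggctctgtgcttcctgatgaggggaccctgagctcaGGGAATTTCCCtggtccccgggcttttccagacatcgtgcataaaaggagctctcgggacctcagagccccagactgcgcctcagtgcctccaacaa
The marked sequence began 30 bases before the start in C1qb, 40 bases before it in Trem2, 71 bases before it in Cxcl1 and 97 bases before it in Cxcl2. GAGGAA was present on either strand in 23.3% of all 32851 RefSeq promoter windows of this length, and the NF-kappa-B consensus in 3.90%. Of the 14 genes of the macrophage identity list, 10 had a promoter in the table and 6 held GAGGAA. Of the 19 genes of the chemokine and cytokine list, 13 had an examined window and 4 of these held the NF-kappa-B consensus. Cxcl1 is not in that list and not in these counts. The 4 windows shown all hold a match. The windows of C1qc, Aif1, Ctss and Cd68 also held GAGGAA, while some other high or lowered genes had no match. Those of Il1b and Tnf had no match to the NF-kappa-B consensus, and that of Fcer1g had no GAGGAA. A match is a description of the letters and says nothing about binding.

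Prmt1, the targeted gene (ENSMUSG00000109324; chromosome 7, 44975989 to 44986568, minus strand), was counted in both libraries of macrophage-marker cells. Levels are given as UMIs of a gene per 1000000 summed UMIs of the cell group (CPM), and differences as log2((CPM mutant + 10)/(CPM control + 10)), which understates the change of low genes. Prmt1 stood at 383 CPM in the mutant library (163 UMIs in 55 of 81 cells) and at 219 CPM in the control library (64 UMIs in 38 of 78 cells), a log2 ratio of 0.78. Over the alternatives the log2 ratio lay between 0.19, with muscle-high cells included, and 2.07, with cells thinned to 1000 UMIs. The plain ratio was 1.74, with an exact 95% interval of 1.30 to 2.37. Over all other cells the levels were 626 and 570 CPM, and in cells with endothelial markers 552 and 559 CPM. The sources used here do not say which exons are deleted, and the counts come from 3′ tags, so these levels check nothing about the deletion. The other arginine methyltransferases had 0 to 9 UMIs in a library.

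Before the levels are compared, cells with muscle transcripts have to be set apart. Cells with at least 30 UMIs of the troponin genes Tnnt2 and Tnnc1 per 10000 UMIs made up 34.7% of mutant and 49.2% of control cells. Among macrophage-marker cells they were 0 of 81 in the mutant library, which allows a share of up to 3.70%, and 6 of 84 in the control library (7.14%, exact Clopper-Pearson 95% interval 2.67% to 14.9%). The difference was -7.14 percentage points (Newcombe interval -14.7 to -1.21). The split was made because muscle transcripts in these cells had already been seen to differ between the libraries. This difference therefore describes that choice and tests nothing. These 6 control cells had 13408 to 106575 UMIs, with a median of 24226.5. They gave 10.2% of their UMIs to a heart muscle list of 18 genes and 47.5 UMIs per 10000 to the 5 marker genes. Each held 9 to 76 UMIs of C1qb beside 159 to 4274 UMIs of Actc1, the cardiac actin. The nearest members below the threshold had 27.2 UMIs per 10000 in the mutant library (16523 UMIs in that cell) and 25.7 in the control library (21761 UMIs), and the nearest above it had 31.4. Any Tnnt2 or Tnnc1 UMI was seen in 10 of 81 mutant and 16 of 84 control members. Whether the 6 are doublets was not tested. All gene levels below come from the 81 mutant and 78 control members under the threshold.

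The share of macrophage-marker cells was close in both libraries. It was 1.75% of cells in the mutant library (81 of 4640, interval 1.39% to 2.17%) and 2.05% in the control library (84 of 4100, 1.64% to 2.53%), a difference of -0.303 points (-0.891 to 0.270). Among cells below the muscle threshold it was 2.67% (81 of 3032) in the mutant and 3.75% (78 of 2082) in the control, a difference of -1.07 points (-2.12 to -0.103). The second denominator differs because fewer mutant cells passed the muscle threshold. No barcode was shared between members of the libraries, and 8 barcodes were shared among all cells. Every mutant barcode was on the control barcode list. In the control matrix 6674 of them (92.9%) had at least 1 UMI, with a median of 4 UMIs, against 7.98% of all barcodes on that list. The 78 barcodes of mutant members found there held 571 control UMIs, 12 of them from the 5 marker genes. What part such shared barcodes have in the results was not tested.

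The libraries differed in depth, and this stands beside every comparison of levels. Over all cells the median was 4046 UMIs in the mutant and 5896.5 UMIs in the control. Macrophage-marker cells ran the other way, with a median of 4194 UMIs in the mutant (1046 to 24197) and 2815 UMIs in the control (1087 to 21761). Their summed counts were 426027 and 291744 UMIs. Members over 5000 UMIs were 26 of 81 in the mutant and 12 of 78 in the control. Mitochondrial genes took a median of 2.15% and 2.40% of their UMIs. Across cells, the share of UMIs from the marker genes was lower in deeper cells, with Spearman coefficients of -0.51 in 81 mutant cells and -0.48 in 78 control cells; both measures share the cell's total. Levels are therefore also given for members of 2000 to 5000 UMIs, 49 in the mutant with a median of 3738 UMIs and 50 in the control with a median of 2905.5 UMIs, which narrows this gap without closing it. What part depth has in the differences was not tested.

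**Figure D1:**
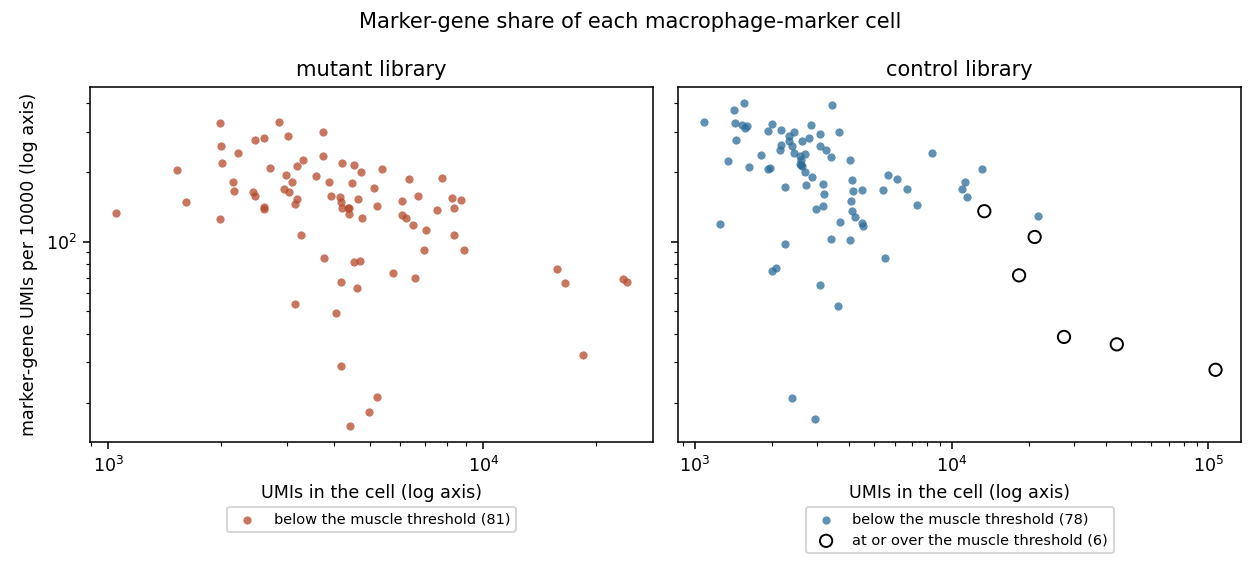
UMIs of the 5 marker genes per 10000 (log axis) against the UMIs of each cell (log axis), 1 point per macrophage-marker cell, with the mutant library on the left and the control library on the right. Filled points are the 81 mutant and 78 control cells below the muscle threshold, and the 6 open circles are control cells at or over it, all with at least 13408 UMIs.

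The rule met few borderline cells. Members had 7 marker UMIs or more in the mutant library and 5 or more in the control library, and 70 of 81 mutant members and 76 of 84 control members had 30 or more. Just outside, 2 mutant and 4 control cells had 3 marker UMIs. A further 10 mutant and 4 control cells had at least 4 UMIs of a single marker gene, which was Fcer1g alone in 9 and 3 of them. All of those Fcer1g cells lay in the megakaryocyte gate, held Gp9, a platelet glycoprotein, and had no Csf1r UMI. Over all cells that were not members, the 5 genes together had 2.90 CPM (mutant) and 1.41 CPM (control), against 12607 CPM and 18818 CPM in the mutant and control members.

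The genes that led these cells over all others included complement and chemokine genes that macrophages use, beside genes of leukocytes in general such as Cd52, Coro1a and Rac2. The lower of the 2 libraries' log2 ratios over other cells put Tyrobp (8.40), Ccl4 (8.14), C1qb (8.11), Fcer1g (7.97) and C1qc (7.94) first. The leading 20 also held Aif1, Ccl3, Ccl12, Spi1, Trem2, Ctss, Ms4a6c, Apoe, Ly86, Cd52, Coro1a, Alox5ap, Rac2, Ptpn18 and C1qa. Of 2504 measured genes, those with at least 50 CPM in 1 library and 20 UMIs over both, 506 (20.2%) stood at least 2-fold above other cells in both libraries. Csf1r, the receptor for the growth factor that macrophages need to survive, had 183 CPM in mutant and 425 CPM in control members, against 0.411 and 0.369 CPM in other cells. Cx3cr1, Adgre1 (the F4/80 antigen) and Ms4a7 had no UMI in other cells of either library. These genes travel with the markers that picked the cells, so the values describe the set and test nothing.

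Lists for other blood cells differed in how far they were seen. The monocyte list summed to 610 CPM in mutant members and 943 CPM in control members, with a UMI in 65 of 81 and 65 of 78 cells, and Ms4a6c gave 350 and 675 CPM of it. In that list Ly6c2 and Chil3 had no UMI in either library, and the monocyte receptor Ccr2 had 1 UMI in the mutant and 3 UMIs in the control. The microglia list summed to 425 and 778 CPM, with a UMI in 56 of 81 and 57 of 78 cells. The same list summed to 731 CPM in other mutant cells and 692 CPM in other control cells, so its sum does not mark the members. Its Fcrls had 195 and 367 CPM, P2ry12 had 8 and 6 UMIs, and Tmem119 and Sall1 had none. Of the class II antigen presentation genes, H2-Aa had 0 mutant and 30 control UMIs, all 30 in 1 control cell that also held 61 UMIs of Cd74 and 13 of H2-Eb1. Granulocyte genes summed to 131 CPM in mutant members and 27.4 CPM in control members, mast cell genes to 28.2 and 113 CPM, and lymphoid genes to 91.5 and 92.5 CPM. Most of the first was Prtn3, a protease of granule-bearing precursors, with 39 UMIs in 8 mutant cells, 21 of them in 1 cell, and 1 UMI in the control. Most of the control mast cell sum came from 1 cell with 18 UMIs of Cma1 and 9 of Cpa3.

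Transcripts of heart cell types and of red cells were also present. Heart muscle genes took 0.223% of UMIs in mutant members and 0.319% in control members, and 1 cell in each library held 733 of 951 and 791 of 931 of these UMIs. Endothelial list genes summed to 153 and 72.0 CPM, with 4 of 12 genes at 0 in the mutant and 10 of 12 in the control. Mesenchymal genes summed to 35.2 and 20.6 CPM, and epicardial genes to 23.5 and 3.43 CPM. The 7 measured red cell genes had a median log2 ratio of -1.09, with Hbb-y, the embryonic beta-type globin, at 1613 CPM in mutant members and 4370.3 CPM in control members. Single cells carried it: 2 mutant cells held 415 and 192 of the 687 mutant UMIs, and 3 control cells held 435, 408 and 387 of the 1275 control UMIs. Hbb-y was seen in 46 of 81 mutant and 35 of 78 control cells, and the red cell median was -0.18 among members of 2000 to 5000 UMIs. In the endothelial gate 3 mutant and 0 control members were also found, and in the mesenchymal gate 0 and 1. The part of these cells and transcripts in the differences between the libraries was not tested.

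Members without a C1q UMI differed from the rest. There were 9 of 81 in the mutant and 6 of 78 in the control. In them the macrophage identity list summed to 1136 and 669 CPM, against 2939 and 4779.7 CPM in mutant and control members with C1q. Csf1r had 2 UMIs in the mutant and 0 in the control, and Aif1 had 7 and 0. Ifitm1, an interferon-induced membrane protein, reached 2177 CPM in mutant cells and 7627 CPM in control cells, but 2.54 and 0 CPM in members with C1q. In single cells, 40 of its 69 mutant UMIs and 71 of its 114 control UMIs came from 1 cell each. Plac8 had 568 and 669 CPM in them, against 2.54 and 3.61 CPM in members with C1q. Ifitm1 was chosen after its values were seen. Of the 8 mutant cells with Prtn3, 5 were in this set, as were the control cells with H2-Aa and with Cma1 named above. These genes go against the label of macrophages.

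Among the members, the levels of macrophage genes and of cell cycle genes were negatively related. Per cell, the identity list ranged from 0 to 96.9 UMIs per 10000 in the mutant (median 28.6) and from 0 to 125 in the control (median 49.7). The G2 and M phase list ranged from 0 to 111 (median 21.6) and from 0 to 112 (median 7.68), with 11 of 81 and 20 of 78 cells at 0. The Spearman coefficient between the 2 lists was -0.29 over 81 mutant cells and -0.45 over 78 control cells, while total UMIs went with the G2 and M phase list at 0.47 and 0.45 and with the identity list at -0.46 and -0.30. Depth therefore ran opposite ways with the 2 lists, and its part in their relation was not tested. The identity list went with the lysosome list without Ctss (0.73 in the mutant and 0.57 in the control) and with Apoe (0.71 and 0.59). Cells of 1 library share its depth and preparation, so these coefficients are descriptions.

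Pf4 and Ccl4 showed little relation to each other across cells. Pf4, a chemokine of platelets and of fetal tissue macrophages, had a UMI in 53 of 81 mutant and 59 of 78 control cells, and went with the sum of Mrc1, Dab2, Stab1 and F13a1 (0.48 in the mutant and 0.55 in the control). Ccl4, which draws leukocytes, had a UMI in 59 of 81 mutant and 50 of 78 control cells. Its coefficient with Pf4 was 0.15 and 0.05. With the summed Cxcl2, Il1b, Tnf and Cxcl1, Ccl4 had 0.20 in the mutant and 0.41 in the control. Of that sum, 41 of 81 mutant and 29 of 78 control cells had none. F13a1, the coagulation factor XIII A chain, was concentrated in few cells: 5 mutant cells over 10000 UMIs held 77 of its 91 UMIs, and 5 control cells held 16 of 41.

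**Figure D2:**
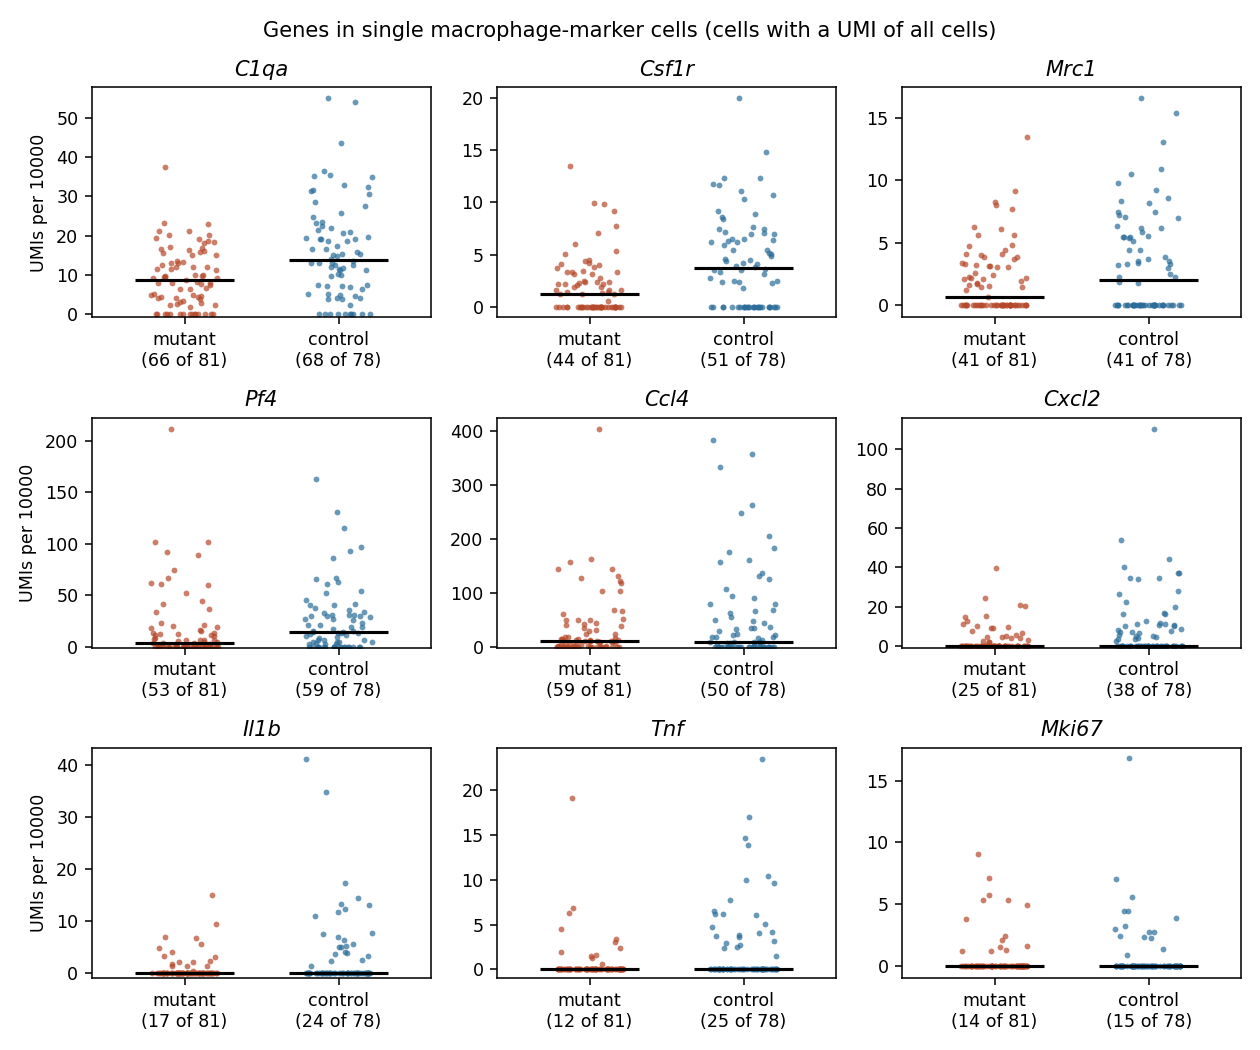
UMIs per 10000 of 9 genes in single macrophage-marker cells below the muscle threshold, mutant on the left and control on the right of each panel, with the median as a line and the number of cells with a UMI under each group. C1qa and Csf1r have lower medians in the mutant (8.49 and 1.29) than in the control (13.6 and 3.73), and in every panel the cells of the 2 libraries overlap; Mki67 was chosen after its values were seen.

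Between the libraries, higher and lower genes were about as many, while most measured macrophage and cytokine genes were lower in the mutant. Of the 2504 measured genes, 84 (3.35%) were at least 2-fold higher and 94 (3.75%) at least 2-fold lower in mutant members, and 301 (12%) and 294 (11.7%) passed 1.5-fold. The median log2 ratio of all measured genes was 0.03. In the endothelial gate, with 268 mutant and 169 control cells, 1.42% of 2683 measured genes were 2-fold higher and 0.969% 2-fold lower, and 5.11% and 2.65% passed 1.5-fold. The numbers of cells set how far single genes scatter, so the gate gives a scale and not a test.

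The 5 marker genes were all lower in the mutant, which describes the set that they chose. C1qa had 815 CPM in mutant members and 1673 CPM in control members, a ratio of 0.487 (0.423 to 0.560). At 2000 to 5000 UMIs per cell it had 1008 and 1284 CPM, a ratio of 0.785 that no longer passed 1.5-fold. The 5 deepest mutant cells held 52 of 347 C1qa UMIs, and the 5 deepest control cells 189 of 488. C1qb had 2782 and 3921 CPM, C1qc 2446 and 3839, Tyrobp 3422 and 4545, and Fcer1g 3143 and 4839.9 CPM. Their median log2 ratio was -0.62, and -0.33 among members of 2000 to 5000 UMIs. With the 6 muscle-high control cells included, C1qb had a log2 ratio of 0.04 and Tyrobp one of 0.16. Per cell, C1qa ran from 0 to 37.5 UMIs per 10000 in the mutant and from 0 to 55.2 in the control, so the libraries overlap widely. After each cell was thinned to 1000 UMIs, 56.8% of mutant and 62.8% of control members had a C1qa UMI (81.5% and 87.2% unthinned), against 0% of cells in the muscle gate of either library. That gate leaves out every cell that meets the marker rule, so its 0% follows from the choice of cells. The muscle gate shares given below for genes that travel with the markers have the same limit.

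Of the 12 measured genes of the macrophage identity list, 6 were at least 1.5-fold lower in the mutant and 0 higher, with a median log2 ratio of -0.67. The background for 1.5-fold lower was 11.7%. Csf1r had a ratio of 0.431 (0.320 to 0.576). Thinned to 1000 UMIs, 14.8% of mutant and 35.9% of control members had a Csf1r UMI (54.3% and 65.4% unthinned), against 0% in the muscle gate. Ms4a7, a tetraspan membrane protein of macrophages, had 124 CPM in mutant members and 353 CPM in control members. Cd14, the lipopolysaccharide co-receptor, had 35.2 and 199 CPM, from 15 and 58 UMIs. The cysteine protease gene Ctss had 448 and 792 CPM, and Adgre1 had 46.9 and 123 CPM from 20 and 36 UMIs. Aif1 (887 and 1275 CPM), Trem2 (275 and 401 CPM), the lipid receptor that signals through Tyrobp, and Cd68 (254 and 339 CPM) differed by less than 1.5-fold. Cx3cr1, the fractalkine receptor, ran the other way with 249 and 171 CPM. In both libraries deep cells held much of it: 5 mutant cells over 10000 UMIs held 63 of 106 UMIs, and 5 control cells 26 of 50. Among members of 2000 to 5000 UMIs the list median was -0.48, with Csf1r at 218 and 374 CPM and Cd14 at 28.6 and 157 CPM. With the muscle-high control cells included, Aif1 and Cd68 had log2 ratios of 0.05 and 0.10.

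**Figure D3:**
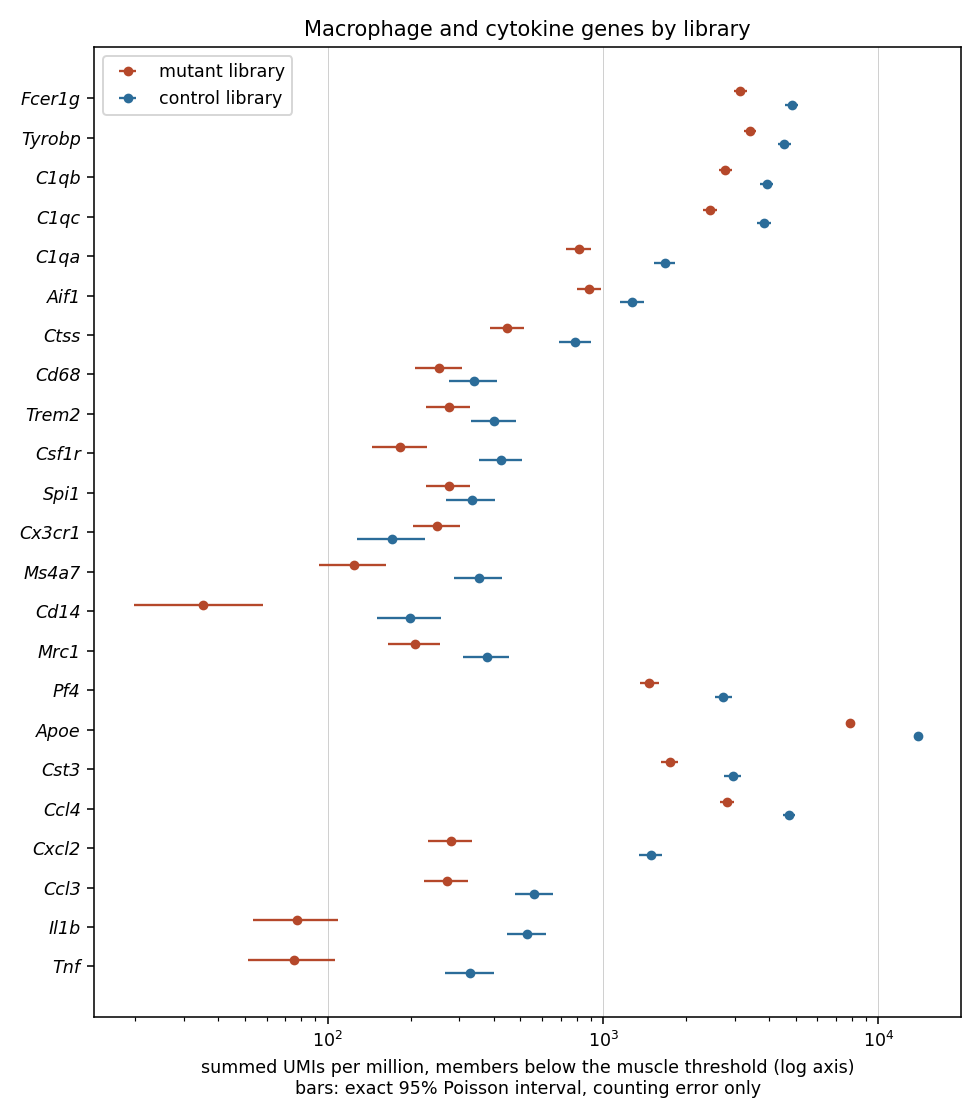
Level in CPM (log axis) of 23 macrophage, lysosome and cytokine genes in members below the muscle threshold, with exact 95% Poisson intervals that cover counting error only; the mutant library is drawn above the control library for each gene. Cx3cr1 alone is higher in the mutant, at 249 against 171 CPM, and Cd14, Cxcl2, Il1b and Tnf lie farthest apart.

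Most chemokine and cytokine genes were lower in the mutant. Of 16 measured, 11 were at least 1.5-fold lower in the mutant and 0 higher, beside 11.7% lower and 12% higher of all genes, with a median log2 ratio of -0.90. These background shares hold for every list count below. Cxcl2, which draws neutrophils, had 279 CPM in mutant members and 1491 CPM in control members, a ratio of 0.187 (0.152 to 0.230). Il1b, the precursor of interleukin 1 beta, had 77.5 and 528 CPM, and Tnf, the gene of tumour necrosis factor, had 75.1 and 329 CPM. Cxcl1, which is outside this list, is a neighbour of Cxcl2 on chromosome 5, and its promoter stands above. It had 0 mutant UMIs and 36 control UMIs (123 CPM). Read against the 3 UMIs that a count of 0 allows in the mutant library (7.04 CPM), it was at least 17.5-fold lower. Ccl4 had 2824 and 4730.2 CPM, Ccl3 270 and 562 CPM, and Ccl12 293 and 326 CPM.

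Cxcl2, Il1b and Tnf came from a minority of cells, while Ccl4 was seen in most. Cxcl2 was seen in 25 of 81 mutant and 38 of 78 control cells, Il1b in 17 and 24, and Tnf in 12 and 25. Ccl4 was seen in 59 of 81 mutant and 50 of 78 control cells, and Ccl3 in 39 and 42. The median of Ccl4 per cell was 12.01 UMIs per 10000 in the mutant and 10.49 in the control, so it ran opposite to the summed level. The 5 control cells over 10000 UMIs held 192 of the 435 control UMIs of Cxcl2, and 1 control cell held 54 of the 154 control UMIs of Il1b. Among members of 2000 to 5000 UMIs the list median was -0.52, with Cxcl2 at 252 and 754 CPM, Il1b at 63.0 and 183 CPM, Tnf at 57.3 and 223 CPM and Ccl3 at 321 and 374 CPM. After thinning to 1000 UMIs, 18.5% of mutant members (10.8% to 28.7%) and 35.9% of control members (25.3% to 47.6%) had a Cxcl2 UMI, and 3.70% and 17.9% had a Tnf UMI, against 0% in the muscle gate for both genes. Unthinned, these shares were 30.9% and 48.7% for Cxcl2 and 14.8% and 32.1% for Tnf. With the muscle-high control cells included, the log2 ratio of Ccl4 was 0.0013.

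**Figure D4:**
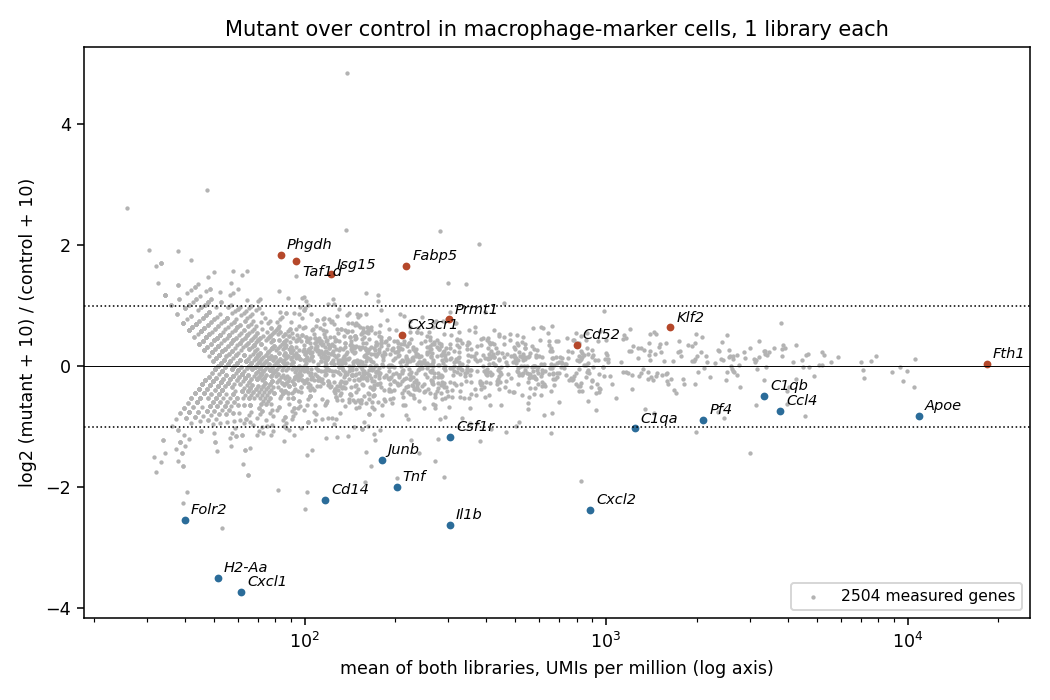
Log2 ratio of mutant over control, with 10 CPM added, against the mean of both libraries in CPM (log axis), 1 point for each of 2504 measured genes in members below the muscle threshold. Named genes are in colour, dotted lines mark 2-fold, and Cxcl1, Il1b, Cxcl2 and Cd14 lie below the lower line while Fth1, near the right edge, lies at 0.04.

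Several genes of resident fetal macrophages were also lower. Of 11 measured, 6 were at least 1.5-fold lower in the mutant and 0 higher, with a median of -0.68 (-0.38 among members of 2000 to 5000 UMIs). Of those 6, Folr2 alone stayed past 1.5-fold among members of 2000 to 5000 UMIs, where Pf4 had a log2 ratio of -0.45, Mrc1 one of -0.40 and Stab1 and Ednrb one of -0.38 each. Over all members, Pf4 had 1469 CPM in mutant members and 2735 CPM in control members. Mrc1, the mannose receptor, had 207 and 377 CPM. Folr2, a folate receptor of tissue macrophages, had 2 and 22 UMIs in 2 and 13 cells. Lyve1, the hyaluronan receptor of macrophages near vessels, had 14 and 25 UMIs in 6 and 8 cells, and its log2 ratio of -1.16 turned to 1.22 among members of 2000 to 5000 UMIs. Dab2, an endocytic adapter, was close at 333 and 356 CPM over all members, and at 149 and 269 CPM among members of 2000 to 5000 UMIs. Pf4 ran the other way in the endothelial gate, at 60.2 and 10.8 CPM. The endothelial gate did not leave out cells of the megakaryocyte gate. That gate held 22 mutant and 12 control cells, with Pf4 at 29630 and 7085 CPM. Their part in the endothelial values was not tested.

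The monocyte, microglia and antigen presentation lists had few measured genes, with medians below 0. In the monocyte list 2 of 3 measured genes were 1.5-fold lower and 1 higher. Of the lower genes, Ms4a6c had 350 and 675 CPM, and Thbs1, the matrix glycoprotein thrombospondin 1, had 3 and 29 UMIs. Ifi27l2a was the higher gene, with a log2 ratio of 0.61, and was seen in 26 of 81 mutant and 14 of 78 control cells. In the microglia list 3 of 5 measured genes were 1.5-fold lower and 0 higher, with Fcrls, an Fc receptor-like gene, at 195 and 367 CPM and Olfml3 at 4 and 21 UMIs. In the antigen presentation list 2 of 5 were lower, H2-Aa and Cd74, and both rested on the single control cell with class II genes: without the highest cell of each library, the log2 ratio of Cd74 turned to 0.14. B2m, the light chain of class I molecules, stood at 345 and 442 CPM.

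Several genes for digestion and lipid transport were lower in the mutant as well. In the lysosome list 7 of 19 measured genes were 1.5-fold lower and 0 higher, with a median of -0.53. The median was -0.53 among members of 2000 to 5000 UMIs too, with 15 genes below 0 against 18 over all members, and Cst3 (-0.29) and the lysosomal lipase gene Lipa (-0.53) no longer passed 1.5-fold. Over all members, Cst3, the protease inhibitor cystatin C, had 1742 and 2951 CPM, Ctsb, a cathepsin, 699 and 1045 CPM, and Grn, progranulin, 239 and 470 CPM. Ctsz was the exception, at 897 and 788 CPM. In the lipid list 4 of 8 measured genes were lower and 1 higher, with a median of -0.59, and -0.13 among members of 2000 to 5000 UMIs. Apoe, the carrier of lipids that macrophages secrete, was the most abundant of the lipid list at 7873 and 13919.7 CPM, a ratio of 0.566 (0.540 to 0.592). It was 10500.0 and 14554 CPM among members of 2000 to 5000 UMIs. In the endothelial gate Apoe had 1313 and 1918 CPM, a log2 ratio of -0.54. Of 5 measured complement and coagulation genes 3 were lower and 0 higher, among them the anaphylatoxin receptor C3ar1 at 155 and 278 CPM. Of 4 measured phagocytosis genes 2 were lower, with the Fc receptor Fcgr3 at 188 and 308 CPM.

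Structural and signalling lists of the same cells had medians closer to 0, though some of their genes were lower. Of 17 measured adapter and oxidase genes 5 were 1.5-fold lower and 0 higher, with a median of -0.12. Among the lower ones were Unc93b1 (log2 ratio -1.19), Cybb (-1.13), Cd37 (-0.96) and Cd53 (-0.86). Other genes of these lists differed less. Tmsb4x, which binds actin monomers, had 9692 and 10286 CPM, Coro1a, an actin regulator of leukocytes, 549 and 490, Rac2, a GTPase of the oxidase, 427 and 449, and Cd52, a leukocyte surface peptide, 897 and 699 CPM. The ferritin genes Fth1 and Ftl1 stood at 18508 and 18060.4 CPM and at 5234 and 5186 CPM. Of 9 measured genes of the iron and haem list 4 were lower, among them Blvrb at 486 and 840 CPM. Another of the 4 was Hpgd, at 296 and 638 CPM, which breaks down prostaglandins and is not itself an iron or haem gene. Of 9 measured myeloid transcription factors Cebpb alone passed 1.5-fold, at 1744 and 3164 CPM, a share near the 11.7% of all genes. At 2000 to 5000 UMIs per cell Cebpb had a log2 ratio of -0.54, under 1.5-fold, and Zeb2, a zinc finger factor, one of -0.70. Spi1, which encodes PU.1, had 275 and 332 CPM, a ratio of 0.826 (0.626 to 1.09).

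Most immediate early genes were lower in the mutant, and a few were higher. Of 19 measured, 14 lay below 0 over all members, and 14 among members of 2000 to 5000 UMIs. Of 19 measured genes of the immediate early and dissociation list, 9 were 1.5-fold lower in the mutant and 2 higher, with a median of -0.44 and a ratio of summed UMIs of 0.867 (0.823 to 0.913). Among members of 2000 to 5000 UMIs the median was -0.19 while the ratio of sums was 1.15, so median and sum differ in sign there. Junb had 86.8 and 274 CPM, Ier3 131 and 411 CPM and Btg2 14 and 50 UMIs. Outside the list, Nr4a1, an orphan nuclear receptor, had 11 and 51 UMIs. Klf2, which restrains inflammatory genes in myeloid cells, was higher at 1995 CPM in mutant members and 1275 CPM in control members, and 2480.3 and 1075 CPM among members of 2000 to 5000 UMIs. Across cells, the list went with the chemokine list without Pf4 at a Spearman coefficient of 0.17 in the mutant and 0.51 in the control.

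Interferon genes had no common direction. Of 5 measured, 2 were 1.5-fold higher and 1 lower in the mutant; the median was -0.16 while the ratio of sums was 1.06, so they differ in sign. Isg15, a ubiquitin-like modifier induced by interferon, had 185 CPM in mutant members and 58.3 CPM in control members, in 20 and 12 cells. It was higher in the endothelial gate too, at 23.1 and 2.32 CPM. Ifitm3 had 282 and 165 CPM, and Ifitm2 319 and 504 CPM.

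The cell cycle lists had medians above 0 over all members, and the G2 and M phase median was below 0 among members of 2000 to 5000 UMIs. Of 14 measured G2 and M phase genes 4 were 1.5-fold higher in the mutant and 0 lower, beside a background of 12%, with a median of 0.36, and of 7 S phase genes 1 was higher, with a median of 0.39. Birc5, survivin, had 291 and 185 CPM, and Tubb4b, a tubulin, 195 and 106 CPM. Among members of 2000 to 5000 UMIs the G2 and M phase median was -0.60 and the S phase median 0.05. Top2a, a topoisomerase of dividing cells, had a log2 ratio of 0.70 over all members and of -1.10 in that range. Of the 62 mutant UMIs of Top2a, 34 came from 5 cells over 10000 UMIs. Mki67, chosen after its values were seen, had a UMI in 14 of 81 mutant and 15 of 78 control cells.

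**Figure D5:**
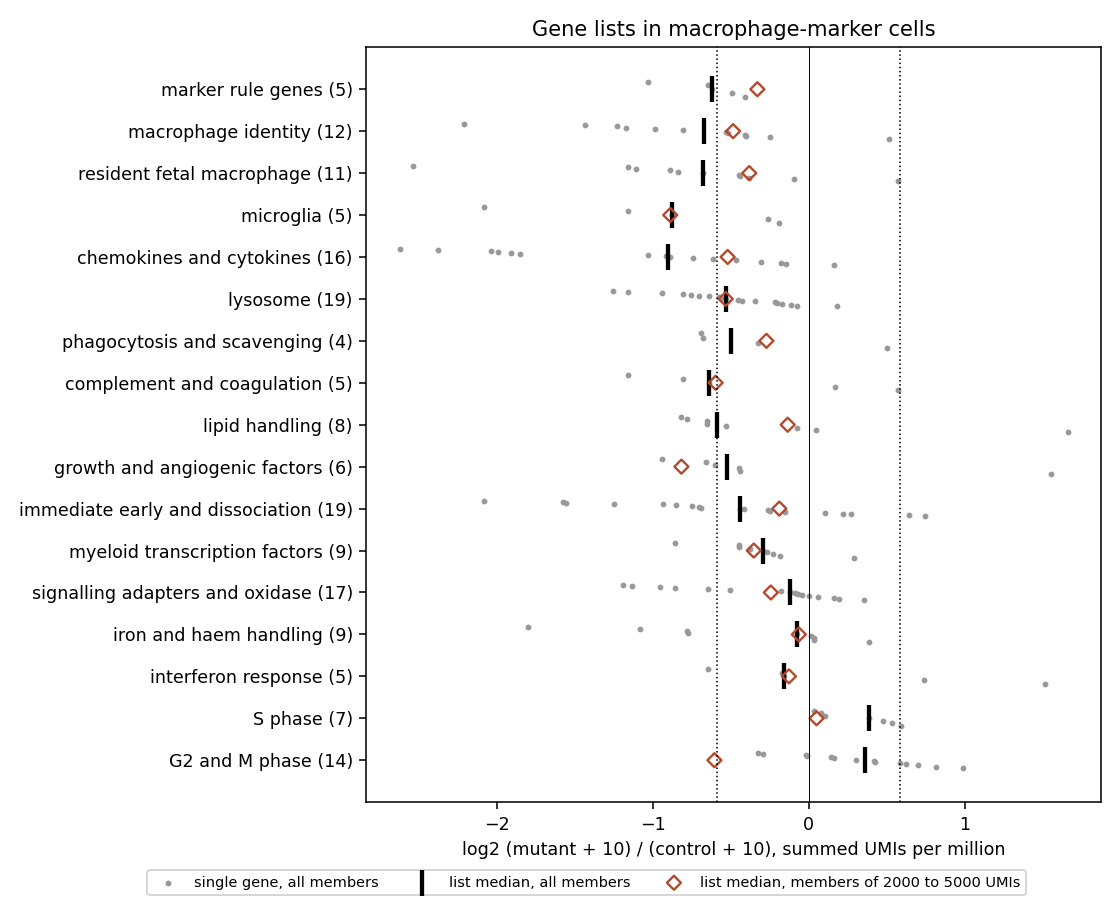
Log2 ratio of mutant over control, with 10 CPM added, for the measured genes of 17 lists in members below the muscle threshold, with the number of measured genes in parentheses. Dots are single genes, bars the list medians over all members and diamonds the medians among members of 2000 to 5000 UMIs; dotted lines mark 1.5-fold. Medians of macrophage, cytokine and lysosome lists lie left of 0 in both, and the diamond of the G2 and M phase list lies at -0.60 against a bar at 0.36.

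The highest ratios outside other-cell-type lists belonged to low genes. Fabp5, a fatty acid binding protein, had 336 CPM in mutant members and 99.4 CPM in control members, a ratio of 3.38 (2.25 to 5.22), in 34 and 20 cells, and 315 and 138 CPM among members of 2000 to 5000 UMIs. In the endothelial gate it stood at 1892 and 2440.2 CPM. Phgdh, the first enzyme of serine synthesis, had 58 and 9 UMIs, and Taf1d, a subunit of an RNA polymerase I factor, had 64 and 11 UMIs. Ankrd39, Cdkn2aipnl, Igsf8, Strap and Alkbh2 had 23 to 30 UMIs in the mutant and 2 to 4 UMIs in the control. H19, an imprinted RNA, had 28 and 3 UMIs, with 18 of the 28 in 5 deep cells. Ramp2, a receptor partner known from endothelium, had 22 and 0 UMIs. The 22 came from 2 mutant cells, 14 of them from 1, and without members that also lay in another gate no Ramp2 UMI was left. It stood at 1320 and 1645 CPM in the endothelial gate. Growth and angiogenic factors had 1 of 6 measured genes higher, Fn1 with 34 and 6 UMIs, and 3 lower; Fn1 turned to a log2 ratio of -1.65 among members of 2000 to 5000 UMIs. Of 2 measured p53 targets, Bax stood at 345 and 264 CPM and Btg2 was lower.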

How the data were processed

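Hearts at E12.5 were dissociated with TrypLE and profiled with the 10X Chromium kit, v2 per the labels. The control list of 6794880 barcodes is longer than that of the v2 kit, so the version is uncertain, but every mutant barcode is on it. The authors deposited UMI counts for each gene in each barcode. Per the file headers, Cell Ranger 3.0.2 produced them. Seurat also appears in the submitters' processing notes. The genome build is not given in the sources used here; positions are from GENCODE M21 (GRCm38), which held 99.6% of the 31053 gene IDs, and promoters from RefSeq (GRCm38.p6). The control matrix was unfiltered (542175 barcodes with a UMI) and the mutant matrix was filtered (7181 barcodes of at least 500 UMIs).

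The same minimums were applied to both: 1000 UMIs, 500 genes and at most 20% mitochondrial UMIs. The members, the marker genes, the muscle threshold and the gene lists were chosen with earlier results of these data known. No doublet caller was run; cells meeting the rule and another cell type's gate are counted instead. UMIs were summed over members of each library. A gene was called measured from 50 CPM in either library and 20 UMIs in all. Ratios have exact conditional binomial intervals, shares Clopper-Pearson and their differences Newcombe intervals, all 95% and for counting error only. A count of 0 was read as up to 3 UMIs. The endothelial gate required at least 4 UMIs of Cdh5, Pecam1, Kdr, Egfl7, Emcn and Plvap with at least 2 seen; the muscle gate held the other cells at or over the muscle threshold. The ratio computation was tested on simulated data.

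Genes were named by rule: the marker genes, up to 6 highest and up to 4 past 1.5-fold of each list, the 20 leading over other cells, the Prmt family, and the 10 highest and 10 lowest ratios, without genes of other-cell-type lists, globin, ribosomal, mitochondrial and sex-linked genes, gene models, and genes whose endothelial ratio had the same sign and was at least 50% as large. Genes with few or no UMIs are taken from the lists. Some list genes are not reported here by name. The group of 2000 to 5000 UMIs, the runs without the highest cell and without ribosomal genes, and the mesenchymal gate were added after seeing the data. Python 3.11.15, numpy 2.4.6, scipy 1.17.1, pandas 2.3.3 and matplotlib 3.10.9 were used.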

Additional observations from a re-analysis of the deposited data

Results flagged for a closer look

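In the control matrix, which lists barcodes of every depth, 535027 barcodes with under 100 UMIs each held 1560 UMIs of the 5 marker genes among 1560353 UMIs, or 999.8 CPM. No barcode there had more than 5 marker UMIs. Other cells of the control library that passed the filters had 1.41 CPM of these genes. Of the 1560 marker UMIs, 16 lay in barcodes that the mutant matrix also holds. The mutant matrix holds no barcodes of under 500 UMIs.

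For 6 genes among the named measured ones, with at least 20 UMIs in the endothelial gate, the mutant over control difference passed 1.5-fold in macrophage-marker cells and in the endothelial gate with opposite signs. The difference of the log2 ratios, macrophage-marker cells minus endothelial gate, was -2.65 for Pf4, -1.46 for the semaphorin and VEGF co-receptor Nrp1, -1.95 for Hpgd, -2.46 for the transferrin gene Trf, -2.28 for Junb and -1.87 for Fosb. These differences were not tested, since each group is 1 library. For Pf4, the endothelial gate did not leave out cells of the megakaryocyte gate, where its level was far higher.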

How the results depend on the processing

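No paired analysis was possible because there was 1 library per genotype, and for the same reason no replicate could be left out. The difference in the share of macrophage-marker cells lay between -0.35 and -0.13 points over 7 alternatives, and that of members over the muscle threshold between -8.82 and -7.06 points over 8. Neither changed sign.

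The counts of genes past 2-fold depended on the settings. Against 84 higher genes as reported, there were 53 with each cell thinned to 1000 UMIs, 13 with 50 CPM added, 372 with no filter on CPM, 28 with at least 50 UMIs over both libraries, 51 among members of 2000 to 5000 UMIs and 143 with totals without ribosomal protein genes. Against 94 lower genes, there were 182 with the muscle-high control cells included, 35 thinned, 32 with 50 CPM added, 352 with no filter on CPM, 44 with at least 50 UMIs and 62 among members of 2000 to 5000 UMIs.

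Of 2363 values of single genes over 17 alternatives, 2121 moved by less than the counting interval, 227 moved further, and 15 of genes past 1.5-fold changed sign. Counting genes under 1.5-fold too, 103 values had the opposite sign. With a C1q UMI required, Cd74 had a log2 ratio of 0.61, and without the highest cell 0.14. With the muscle-high control cells included, Ccl4 had 0.0013, Ifitm2 0.0066 and H19 -0.16. Thinned, Adgre1 had 0.29, Lyve1 0.60, Rrm2 -1.08, Top2a -1.85 and Igsf8 -1.19. Among members of 2000 to 5000 UMIs, Lyve1 had 1.22, Ccl7 0.053, Fn1 -1.65, Cenpe -0.65 and Top2a -1.10. The causes were not tested. Cxcl2, Il1b, Tnf, Cd14, Ms4a7, Folr2, Isg15 and Fabp5 stayed past 1.5-fold in the same direction in all 17. Depth limits genes under about 20 UMIs. A single cell can set a ratio there and also above that count, as it did for Cd74 and H2-Aa.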
